A study of Oryza sativa with 48 samples.

Results

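Roots of the rice genotype labelled aoc were compared after 72 h in 100 mM NaCl and before salt (0 h), with 3 libraries at each hour. These 6 libraries are part of the 48 of the study, which also sampled 1 and 6 h, the wild type Kitaake (WT) and the 2nd leaf. Seedlings stood in hydroponics for 11 days before salt, each library was made from 3 plants, and an RNeasy kit was used for root RNA. The labels name the aoc genotype without its allele, its background or the number of lines, and the 0 h roots carry it too. No untreated plants were sampled at 72 h, so salt and 72 h of further growth cannot be told apart in any change below.

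Allene oxide cyclase, abbreviated AOC, is the enzyme that closes the ring of the jasmonate precursor in the plastid. Jasmonates are plant hormones of wounding, defence and stress, and their active form releases transcription factors from JAZ repressor proteins. In a root placed in NaCl, water uptake becomes harder at once and sodium builds up over the following days. Abscisic acid, ion transporters, protective proteins and slower growth are known parts of the later response.

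The counts are given per identifier of the rice annotation database RAP-DB, in which the digits before the letter g are the chromosome. Neither the table nor the reference used here, which holds 1 of the identifiers, pairs them with gene names or products. Identifiers are therefore printed without a name, at most 2 for each direction. Lists of jasmonate, ion transport or root and leaf marker genes, and the AOC gene itself, were not analysed here, so neither the genotype nor the tissue label could be checked against its genes.

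Total counts of the 6 libraries ran from 28567133 to 39185364, and 3 counts in 1 library, taken as the detection floor, correspond to 0.0766 to 0.105 CPM (the count of an identifier scaled to the library's total, with TMM factors). Between the 72 h replicates, log2 CPM correlated across genes at 0.961, 0.971 and 0.979, and between the 0 h replicates at 0.982, 0.966 and 0.978. The lowest 72 h value belonged to replicates 1 and 2. The median SD of log2 CPM was 0.185 at 72 h and 0.207 at 0 h. No replicate pair was a copy, since the smallest chi-square per degree of freedom between counts was 31.8 at 72 h and 28.3 at 0 h.

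In aoc root, 2478 of 26195 tested identifiers were higher at 72 h (9.46%) and 2711 were lower (10.3%), at a Benjamini-Hochberg adjusted p under 0.05 in edgeR's quasi-likelihood test. Together they are 19.8% of those tested, and 33.9% had an unadjusted p under 0.05. Most changes were small. The median log2 fold change was 0.80 among the rises (quartiles 0.48 and 1.48) and -0.69 among the falls (quartiles -1.10 and -0.45), against 0.01 over all tested identifiers. At least 2-fold higher were 1002 (3.83% of those tested) and at least 2-fold lower 807 (3.08%). This order turned to 464 higher and 514 lower with the 6 aoc libraries alone in the fit, and to 739 higher and 897 lower without 0 h replicate 1. From whole roots, a change in the number of cells of a type and a change in RNA per cell cannot be told apart.

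Among changes of 4-fold or more, rises outnumbered falls, by 365 to 182 and also under each of the 11 alternatives, where the closest numbers were 271 and 228 without 0 h replicate 1. Rises of 4 to 8-fold numbered 236 and falls 130, rises of 8 to 16-fold numbered 81 and falls 33, and rises past 16-fold numbered 48 and falls 19. Among small changes the order was the other way, with 856 rises and 1059 falls under 1.5-fold.

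Libraries of the 2 hours were fully apart for many more identifiers than were called. With 3 libraries a side, some identifiers separate fully without any change, and the numbers were not tested against that. All 72 h libraries lay above all 0 h libraries for 4400 identifiers (16.8%), 2196 of them called, and below them for 4513 (17.2%), 2577 of them called. A stricter separation was rare. The lowest 72 h library exceeded the highest 0 h library more than 2-fold for 264 identifiers (1.01%), and the highest 72 h library lay more than 2-fold below the lowest 0 h library for 215 (0.821%). At a separation of more than 4-fold the numbers were 48 and 36.

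Abundant transcripts fell more often than they rose. Of 2186 identifiers with a mean of at least 100 CPM over the 6 libraries, 214 were higher (9.79%) and 363 lower (16.6%). Between 10 and 100 CPM, 1202 of 11856 were higher (10.1%) and 1490 lower (12.6%). Between 1 and 10 CPM, 857 of 8428 were higher and 710 lower, an order that turned to 294 higher and 308 lower with the 6 aoc libraries alone in the fit. Under 1 CPM, 205 of 3725 were higher and 148 lower. Precision differs along this scale, since the median SE of a log2 fold change was 0.12 at 100 CPM or more and 0.57 under 1 CPM. Among the 100 most abundant identifiers, 9 were higher and 28 lower, 11 of them at least 2-fold, with the strongest fall at -3.07 on the log2 scale.

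The share of all counts held by the called identifiers moved in a direction that follows from the calls. The identifiers called higher held 11.2%, 14.1% and 13.1% of the counts in the 72 h replicates 1, 2 and 3, against 7.69%, 7.03% and 7.60% in the 0 h replicates. Those called lower held 13.0%, 11.4% and 12.3% at 72 h, against 17.9%, 19.8% and 18.9% at 0 h. Replicate 1 of 72 h moved least in both. These shares describe identifiers that were called on the same libraries.

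The 72 h replicates were uneven in the size of the rises. Among the 1002 identifiers at least 2-fold higher, replicate 2 had the highest 72 h level in 53.8%, replicate 3 in 38.5% and replicate 1 in 7.68%, and replicate 1 had the lowest in 74.7%. Over all tested identifiers the highest level fell to replicates 1, 2 and 3 in 36.5%, 33.4% and 30.1%. Among the 129 identifiers at least 8-fold higher, replicate 2 was highest in 64.3%. Leaving out some libraries lowered the number of calls, of both rises and falls. Without 72 h replicate 2, edgeR called 2373 identifiers (1085 higher and 1288 lower), and without 72 h replicate 3 it called 3097. Without 0 h replicate 2 the number was 2605, and with only the 6 aoc libraries in the fit it was 2100.

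A smaller set was called in each of the 6 fits that leave out 1 library. It held 795 of the rises (32.1%) and 988 of the falls (36.4%). Its median log2 fold change was 1.12 for the rises and -0.90 for the falls, so it holds the larger changes. Called under all 11 alternatives were 554 rises and 789 falls.

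**Figure D1:**
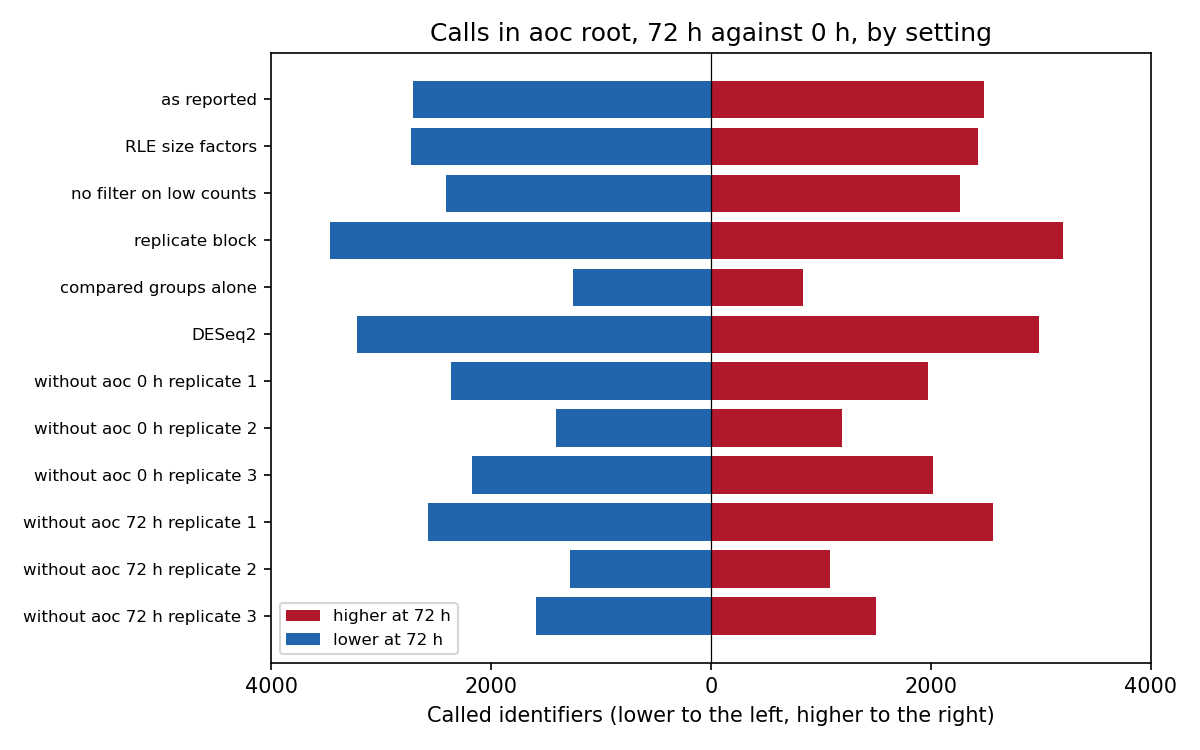
Bars give the number of identifiers called in aoc root at 72 h against 0 h, lower to the left and higher to the right, as reported and under each of 11 alternative settings. The shortest bars are those of the compared groups alone (839 higher and 1261 lower) and of the fit without 72 h replicate 2 (1085 higher and 1288 lower).

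The strongest rise was that of Os12g0630200 on chromosome 12, where only identifiers with fully separate groups and a mean of 5 CPM or more at the higher hour were ranked. It had 1.15, 27.3 and 0.389 CPM in the 72 h replicates 1, 2 and 3, against 0, 0 and 0.128 CPM at 0 h. All 72 h libraries were above the 0 h libraries, but replicate 2 alone set the mean of 9.61 ± 15.3 CPM at 72 h (SD, n = 3). At 0 h the mean was 0.0427 ± 0.0739 CPM, from 5 reads in 1 library. The log2 fold change was 7.51 ± 1.67 (SE; edgeR adjusted p = 0.00521). Without 72 h replicate 2 the change was 3.88 and no longer called (adjusted p = 0.0909), and with the 6 aoc libraries alone the adjusted p was 0.0858.

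At 1 h this identifier had 0.909, 0 and 0.0689 CPM, and at 6 h 0.0906, 0.249 and 0.258 CPM. Replicate 1 of 1 h was thus above 72 h replicate 3, and the other libraries of 1 and 6 h were below every 72 h library. From 6 to 72 h the log2 change was 5.57 ± 1.42 (edgeR adjusted p = 0.0193), but without 72 h replicate 2 it was 1.92 and not called (adjusted p = 0.36). It also missed the threshold without any 1 of the 6 h libraries or with the 6 libraries alone, at adjusted p-values of 0.0508 to 0.16. In WT root it had 0, 0 and 0.192 CPM at 72 h, against 0, 0 and 0.0301 CPM at 0 h. At 72 h alone, aoc was above WT by a log2 value of 7.21 ± 1.63 (edgeR adjusted p = 0.0214). That comparison called 1.85% of identifiers higher in aoc and 1.39% lower. Without aoc 72 h replicate 2 that value was 3.58 (adjusted p = 0.279). It also missed the threshold without any 1 of the WT 72 h libraries, at adjusted p-values of 0.0505 to 0.0962, and with only the compared libraries in the fit, at 0.27. The difference between the changes of aoc and WT was 5.26 ± 6.61 on the log2 scale and did not pass the test (edgeR adjusted p = 1). WT at 0 h held 1 read in all, so this fitted difference and its SE depend on the count that edgeR adds to each library.

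Os08g0327700 on chromosome 8 had 1.35, 14.0 and 0.748 CPM at 72 h, against 0, 0 and 0.128 CPM at 0 h. Replicate 2 was again far above the other 72 h libraries and set the 72 h mean of 5.37 ± 7.48 CPM (SD, n = 3). Like Os12g0630200, this identifier reached the 5 CPM needed for the ranking only through that replicate. The groups did not overlap, which the ranking required. The log2 fold change was 6.67 ± 1.25 (edgeR adjusted p = 0.00180), and 0.0623 was the adjusted p with the 6 aoc libraries alone. Without 72 h replicate 2 the change was 4.31, and without 0 h replicate 3, which held its only 0 h reads, it was 10.5, both called. This identifier was also higher early, with 0.941, 0.900 and 2.21 CPM at 1 h (log2 fold change 4.68; edgeR adjusted p = 0.00799) and 1.33, 4.04 and 5.55 CPM at 6 h (6.11; adjusted p = 0.00123).

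In WT root Os08g0327700 had 1.05, 1.66 and 0.869 CPM at 6 h, and at 72 h it was back at 0.0680, 0.0256 and 0.128 CPM, against 0.0576, 0 and 0 CPM at 0 h. At 72 h the aoc libraries were thus all above the WT libraries, by 6.17 ± 1.20 on the log2 scale (edgeR adjusted p = 0.00779). Without aoc 72 h replicate 2 that value was 3.82 (adjusted p = 0.0651), without WT 72 h replicate 2 it was 5.71 (0.0555), and with only the compared libraries in the fit the adjusted p was 0.197. The difference between the changes was 5 ± 3.63 on the log2 scale and did not pass the test (edgeR adjusted p = 1). WT held 2 reads in all at 0 h, so this value and its SE depend on the added count too.

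The strongest fall was that of Os11g0179700 on chromosome 11, with 1.08, 3.23 and 1.5 CPM at 72 h, against 10.4, 44.3 and 48.9 CPM at 0 h. Every 72 h library was below every 0 h library, which the ranking required. The log2 fold change was -4.15 ± 0.70 (edgeR adjusted p = 0.000787), and it was called under each of the 11 alternatives, between -4.74 and -3.81. The level was 15.8, 28.9 and 48.8 CPM at 1 h, overlapping 0 h, and 4.32, 9.85 and 9.82 CPM at 6 h. In WT root it had 4.05, 2.05 and 2.78 CPM at 72 h, against 9.62, 21.0 and 35.0 CPM at 0 h. The WT fall was -2.89 ± 0.66 on the log2 scale, and it too was called (edgeR adjusted p = 0.00675). The genotypes' changes differed by -1.26 ± 0.90, which did not pass the test (edgeR adjusted p = 1).

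Os12g0163700 on chromosome 12 had 0.690, 3.17 and 1.26 CPM at 72 h, against 10.6, 26.3 and 31.4 CPM at 0 h. The groups did not overlap, which the ranking required. The log2 fold change was -3.73 ± 0.67 (edgeR adjusted p = 0.00136), again called under all 11 alternatives, between -4.54 and -3.36. Most of the fall was present at 6 h, when the libraries held 0.724, 1.15 and 2.69 CPM. From 6 to 72 h the log2 change was 0.16 ± 0.66 (edgeR adjusted p = 0.912). In WT root it had 2.11, 0.538 and 0.671 CPM at 72 h, against 4.06, 7.13 and 10.1 CPM at 0 h. Both falling identifiers had their lowest 0 h level in replicate 1, in aoc and in WT.

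**Figure D2:**
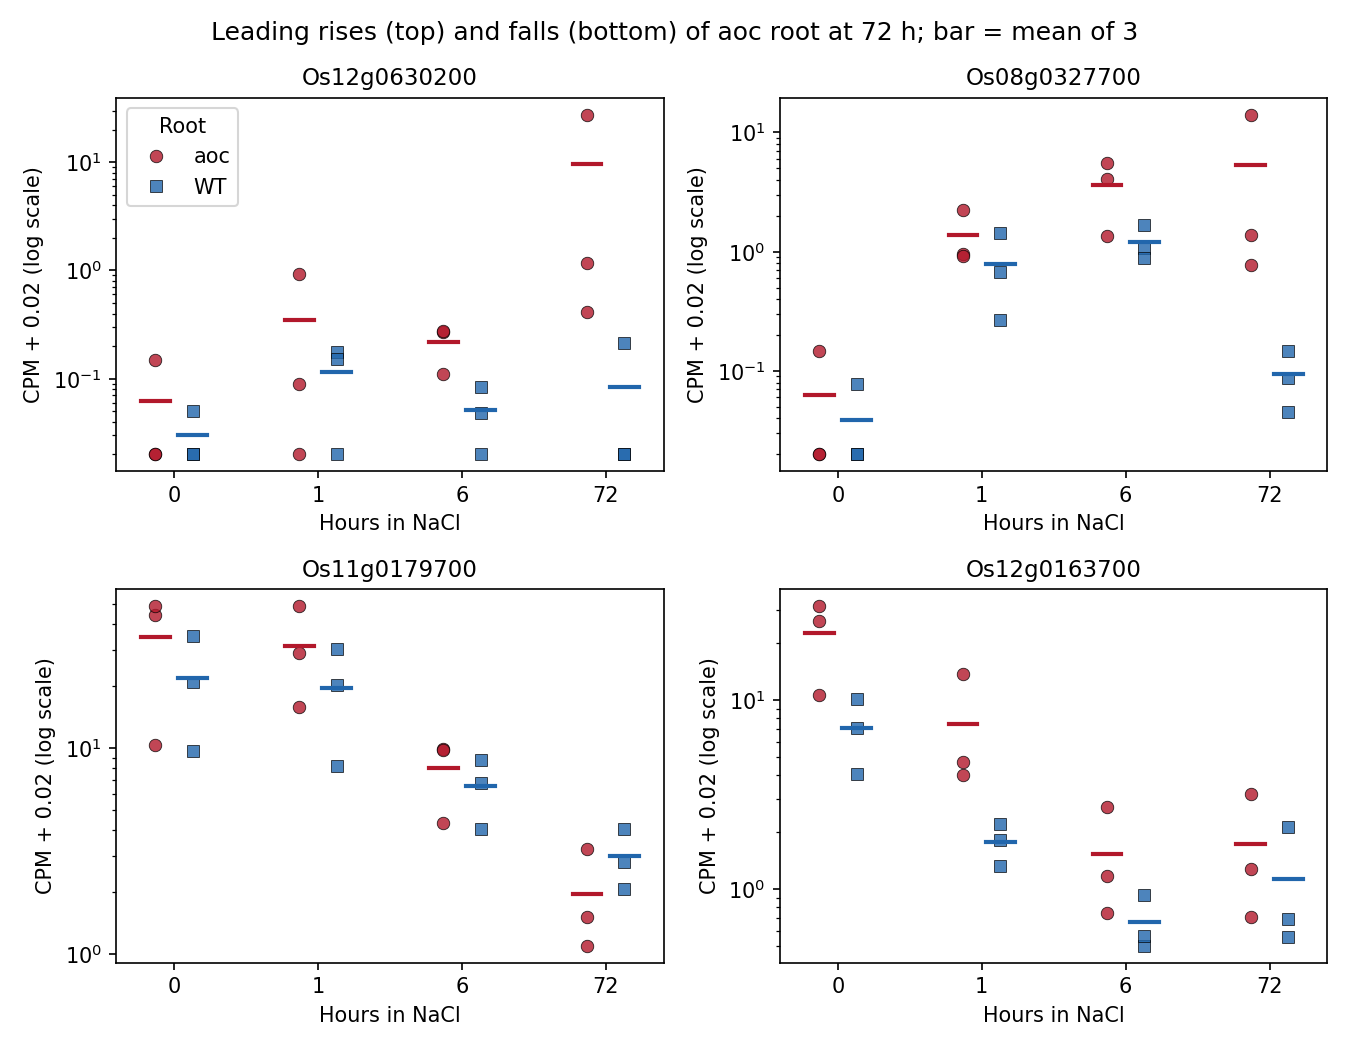
Levels of the 4 leading identifiers in root libraries by hours in NaCl (0, 1, 6 and 72), as CPM plus 0.02 on a log axis. Red circles are aoc libraries, blue squares WT libraries and bars the mean of 3; the upper panels show single aoc libraries far above the other 72 h points, and the lower panels show falls in both genotypes.

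Along the time course, the called identifiers had medians of the same sign at the earlier hours. The 1002 with at least a 2-fold rise had a median log2 fold change of 0.52 at 1 h, 1.40 at 6 h and 1.69 at 72 h. The 807 with at least a 2-fold fall had medians of -0.63, -1.08 and -1.47. Over all tested identifiers these medians were -0.04, 0.02 and 0.01. The 3 hours share the 0 h libraries, which by itself makes such values move together, so they are given side by side only.

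The test of 72 h directly against 6 h in aoc root found 1156 identifiers higher (4.41% of those tested) and 1272 lower (4.86%). At least 2-fold higher were 405 (1.55%) and at least 2-fold lower 664 (2.53%). With these 6 libraries alone in the fit, edgeR called 297, and without 6 h replicate 1 it called 845. Without 72 h replicate 1 the number was 1253, and without 72 h replicate 3 it was 1378.

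A reading of the aoc libraries that uses no call made on them comes from identifiers chosen on WT root. It is not fully separate from them, since same-numbered aoc and WT libraries of 1 hour deviated together (correlations of 0.20 to 0.29 at 72 h and 0.25 to 0.42 at 0 h). In WT, 874 identifiers were called at least 2-fold higher at 72 h (3.34% of those tested) and 832 at least 2-fold lower (3.18%). Over the 874, the mean log2 CPM of the aoc libraries, relative to the mean of aoc 0 h, was 1.11, 1.43 and 1.19 in the 72 h replicates, against -0.08, -0.09 and 0.17 in the 0 h replicates. It was 0.53, 0.39 and 0.40 at 1 h and 1.16, 1.15 and 1.10 at 6 h. Each 6 and 72 h library was thus above each 0 and 1 h library. Over the 832, the level was -1.18, -1.15 and -1.05 at 72 h, against -0.21, 0.15 and 0.06 at 0 h, with -0.48, -0.62 and -0.29 at 1 h and -0.97, -0.84 and -0.63 at 6 h. Here every 72 h library lay below every library of the earlier hours.

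**Figure D3:**
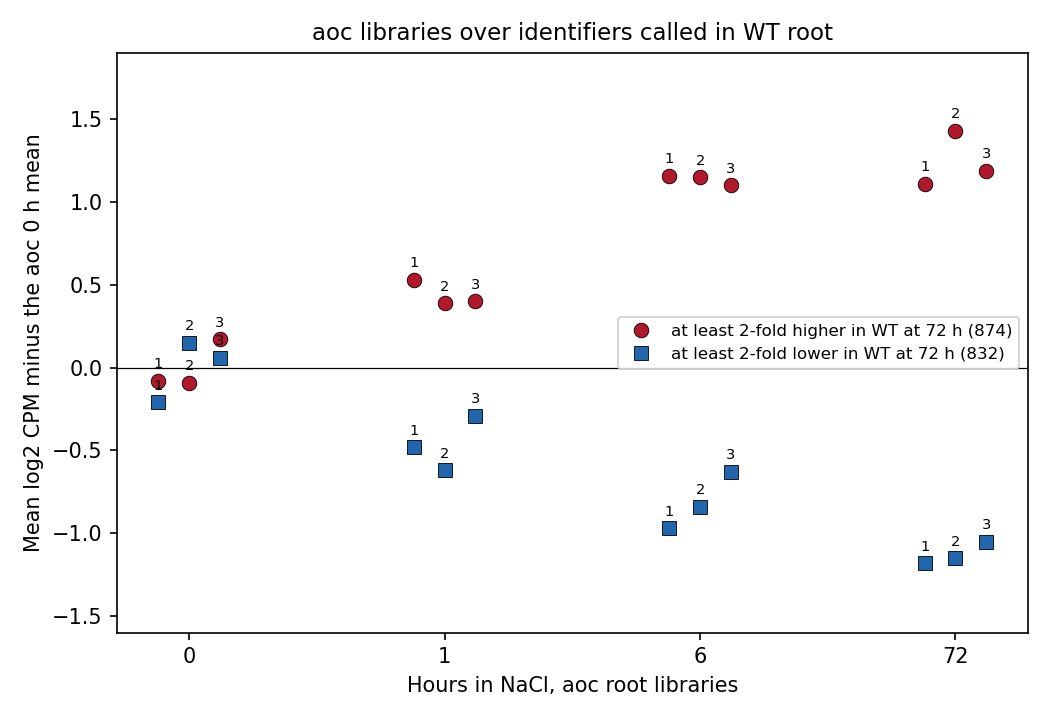
Each point is 1 aoc root library, marked with its replicate number, at its hours in NaCl. The vertical axis is the mean log2 CPM minus the mean of the aoc 0 h libraries, over identifiers at least 2-fold higher (red, 874) or lower (blue, 832) in WT root at 72 h; the red level at 72 h is 1.11 to 1.43 and the blue level -1.18 to -1.05.

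The changes of both genotypes at 72 h overlapped widely. Of the rises in aoc, 52.2% were called higher in WT, where 2407 identifiers were higher (9.19% of those tested), and of the falls 56.5% were called lower in WT, where 2548 were lower (9.73%). Set against the WT lists, the shared identifiers were 53.8% of the WT rises and 60.1% of the WT falls. The fit that gave the calls of both genotypes uses all root libraries for the spread. Among the identifiers called in all 6 aoc fits that leave out 1 library, the shares also called in WT were 71.1% of the rises and 73.8% of the falls.

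Identifiers called in aoc but not in WT mostly had the same sign in WT. Of 1184 such rises, 1091 (92.1%) were positive in WT, with a median log2 fold change of 0.86 in aoc and 0.36 in WT. Of 1180 such falls, 1109 (94.0%) were negative in WT, with medians of -0.61 in aoc and -0.29 in WT. Over all tested identifiers the WT median was 0.03, and the share of each sign was not counted. The joint deviation of same-numbered aoc and WT libraries of 1 hour can add to such agreement, and its part was not tested. A list called in 1 genotype tends to show the larger change there. The identifiers called higher in WT accordingly had a median of 0.49 in aoc and 0.73 in WT, and those called lower -0.58 in aoc and -0.76 in WT. For identifiers called in both, the medians were 0.77 in aoc and 0.76 in WT for rises, and -0.74 in aoc and -0.76 in WT for falls.

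**Figure D4:**
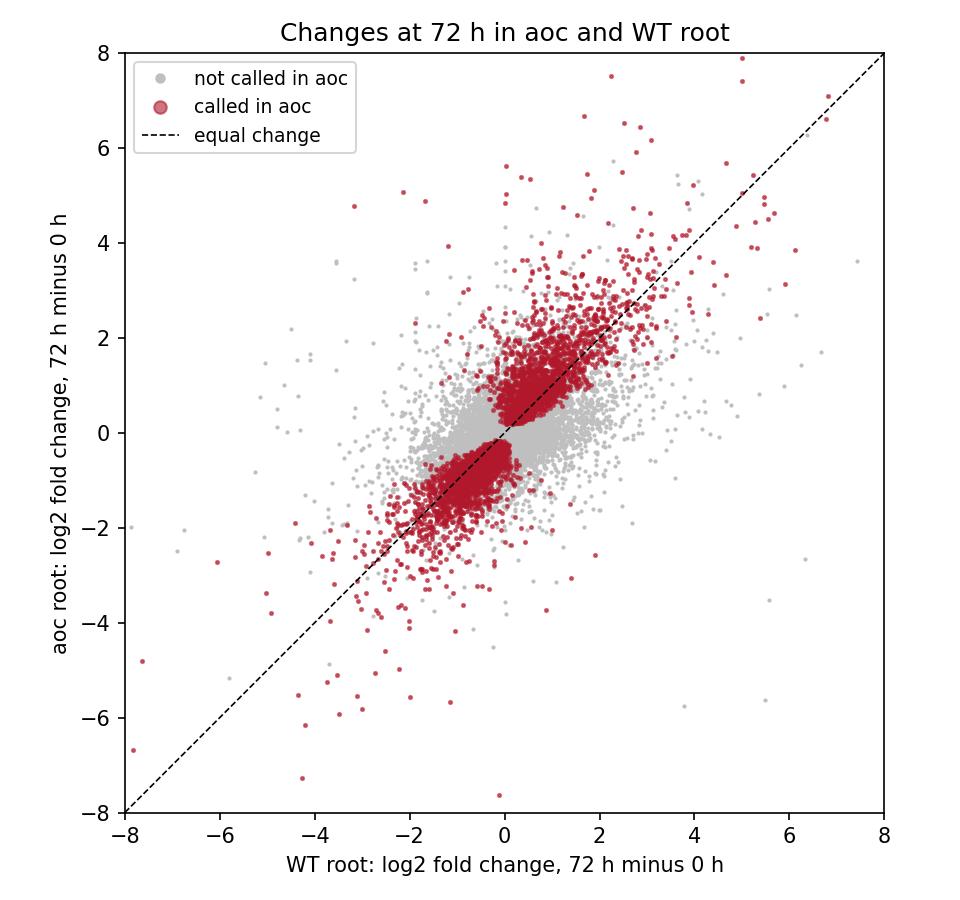
Each point is 1 tested identifier, with its log2 fold change from 0 to 72 h in aoc root on the vertical axis and in WT root on the horizontal axis; 8 points lie beyond the axes. Red points are called in aoc, grey points are not, and the dashed line marks equal change. Most red points lie in the quadrants where both genotypes change in the same direction.

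The direct test of the difference between the aoc and WT changes called 0 of 26195 identifiers in edgeR, where the smallest adjusted p was 0.171. At an unadjusted p under 0.05 there were 1412 (5.39%). The median absolute difference was 0.17 on the log2 scale, and the median SE was 0.27, which is the precision that 3 libraries a group give here. DESeq2 called 32, of which 20 were among the identifiers called in aoc. Same-numbered aoc and WT libraries of 1 hour deviated together. With hour and number as a block, edgeR called 19, with 10 more positive and 9 more negative in aoc. Among those called in aoc were 11 of the 19. DESeq2 also called 5 of the 19. The difference uses the same aoc libraries as the aoc calls, so such overlaps follow in part from the design. Over all tested identifiers, 19.8% were called in aoc. Without aoc 72 h replicate 1, edgeR called 17, of which 16 were more positive in aoc.

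Calls were spread over all 12 chromosomes. The share called higher ran from 8.33% on chromosome 8 to 10.8% on chromosome 10, and the share called lower from 8.83% on chromosome 11 to 11.8% on chromosome 4. Of the rises, 28.5% had the next tested identifier on either side called higher as well, against 17.7% of all tested identifiers. Of the falls, 26.7% had a neighbour called lower, against 19.5% of all tested identifiers.

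Rises formed longer runs of consecutive tested identifiers than falls. There were 55 runs of at least 3 rises and 50 runs of at least 3 falls, the longest with 7 rises and 4 falls. The runs described next were picked after their values were seen, and no test was made of them. Their members called higher in WT are to be read beside the 52.2% of all aoc rises called higher there. Over all tested identifiers that share was 9.19%. Neighbours of similar sequence can also share reads, which the counting described in the sources used here does not settle.

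A run of 6 rising identifiers on chromosome 2 held some of the largest changes, with log2 fold changes of 3.88 to 6.52. Its median level was 0.789, 1.95 and 8.87 CPM in the 72 h replicates, against 0.135, 0.0366 and 0.269 CPM at 0 h. In 0 h replicate 2 this median lay below the floor of 0.105 CPM. In 0 h replicate 1 it was near the floor of 0.0918 CPM. The sizes of these changes thus rest on few 0 h reads. At 6 h the median level was still at 0.151, 0.0777 and 0.458 CPM, so all 72 h libraries were above those of the earlier hour. In WT root the same 6 had 1.39, 2.01 and 9.57 CPM at 72 h, against 0.692, 0.612 and 0.647 CPM at 0 h, and 3 of the 6 were called higher there. The 72 h levels of both genotypes overlapped, while each aoc 0 h library was below each WT 0 h library. Replicate 3 was the highest 72 h library in both genotypes.

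A run of 6 on chromosome 10 rose by 2.37 to 3.69 on the log2 scale. Its median level was 4.21, 19.7 and 15.1 CPM at 72 h, against 1.93, 1.23 and 2.14 CPM at 0 h, with 12.0, 10.8 and 9.85 CPM at 6 h. In WT root it was at 3.33, 8.04 and 8.63 CPM at 72 h, against 2.91, 2.1 and 1.32 CPM at 0 h, and 5 of the 6 were called higher there too. Replicate 1 was the lowest 72 h library in both genotypes, close to 0 h in WT.

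Of the other runs of 6 rises, that on chromosome 1 had a median log2 fold change of 1.68 in aoc and 1.00 in WT, where 3 of the 6 were called higher. The other run on chromosome 10 had a median of 1.41 in aoc and 0.74 in WT, where 1 of the 6 was called higher. In aoc its median level was 4.93, 16.6 and 15.5 CPM at 72 h, against 2.37, 3.44 and 4.97 CPM at 0 h. Replicate 1 of 72 h thus lay within the 0 h range. The level at 6 h was higher than at 72 h, at 46.9, 22.1 and 28.5 CPM.

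The longest run, 7 identifiers on chromosome 5, changed less. Its log2 fold changes were 0.58 to 1.27, and its median level was 24, 49.4 and 23.9 CPM at 72 h, against 13.6, 11.9 and 14.7 CPM at 0 h. It stood higher at 6 h, at 47.7, 47.4 and 42.2 CPM, than in the 72 h replicates 1 and 3. WT root had 26.5, 68.1 and 36.1 CPM at 72 h, against 17.6, 14.1 and 19.4 CPM at 0 h, and 6 of the 7 were called higher in WT.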

How the data were processed

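The authors deposited 1 table of raw read counts for 35667 identifiers in 48 libraries, and 3032 identifiers had no read. Per the submitters' processing notes, fastp, HISAT2, DESeq2 and the build IRGSP-1.0 were used. Which tool counted the reads, with which strand setting, filter and annotation release, is not given in the sources used here. The test was the robust quasi-likelihood F test of edgeR 4.0.16 (R 4.3.3, limma 3.58.1), with TMM factors and with low counts removed by filterByExpr on the groups. All 24 root libraries entered 1 fit of 8 group means without covariates, so the other groups share the estimate of the spread. The SE is the log2 fold change over the root of its F statistic. Where a group has almost no reads, this ratio is only a rough guide to precision. The fit was tested on simulated counts. These were drawn independently for each library, so libraries that deviate together were not covered.

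The labels call the 3 libraries of a group biological replicates. P-values measure the spread between these libraries. Counts carry no molecular identifiers, so floors cover counting error only.

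The identifiers named are the first 2 of each direction by log2 fold change, among those called (adjusted p under 0.05), with fully separate groups and 5 CPM or more on average at the higher hour. The members and lists were chosen with earlier results of these data known. The rule's other parts needed gene names or calls in the difference and gave none.

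Pairing was checked by correlating deviations from group means. Same-numbered aoc 72 h and 0 h libraries gave 0.34, -0.09 and 0.16, against -0.36 to 0.28 for different numbers. These values do not settle whether the numbers pair the 2 hours. Within an hour, aoc and WT gave 0.20, 0.28 and 0.29 at 72 h, and 0.42, 0.25 and 0.33 at 0 h. A block of hour and number was therefore added for the difference between genotypes, after the data were seen. The alternatives of the aoc and WT levels at 72 h, and of the counts by size and level, were also chosen after seeing the data. Alternatives were RLE factors, no filter, DESeq2 1.42.0, fitting only the compared groups, blocking on the replicate number, and leaving out each library. Leaving out a library leaves a group with 2, whose spread is pooled with the other groups.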

Additional observations from a re-analysis of the deposited data

How the results depend on the processing

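RLE factors, no filter on low counts and DESeq2 kept the counts of calls within 1.5 times of those reported, except the difference between the genotypes' changes, where DESeq2 called 32 and not 0. Where only the compared groups were fitted, calls in aoc root at 72 h against 0 h numbered 2100 (978 at least 2-fold), in WT 2522, in both in the same direction 1074, and in aoc at 72 h against 6 h 297, where fewer libraries estimate the spread. The replicate block moved 1 count past 1.5 times, 72 h against 6 h, to 3672. With this block, calls at 72 h against 0 h rose to 6672 in aoc and 6580 in WT. The block within hours gave 19 differences between the genotypes. Leaving out 1 library gave 2373 to 5138 calls in aoc (1028 to 2149 at least 2-fold), 2215 to 4427 in WT, 1550 to 2554 in both, 845 to 2173 for 72 h against 6 h, and 0 to 17 for the difference. The lowest WT counts were 2215, 2429 and 2779, without 0 h replicates 3 and 2 and 72 h replicate 2. The lowest shared counts were 1550 and 1687 without aoc 72 h and 0 h replicates 2, and 1555, 1691 and 1774 without WT 0 h replicates 3 and 2 and 72 h replicate 2.

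Of the named identifiers, 10 uncalled log2 values turned sign when 1 library was left out, and the cause was not tested. Os11g0179700 at 1 h became 0.07, 0.19 and 0.17 (range -0.63 to 0.19), and Os12g0630200 at 1 h became -0.46 (range -0.46 to 6.50). From 6 to 72 h, Os12g0163700 became -0.17, 0.00 and -0.64 (range -0.64 to 0.86), and Os08g0327700 became -1.80 (range -1.80 to 1.08). In WT at 72 h, Os12g0630200 became -1.88 (range -1.88 to 4.13). For aoc minus WT at 72 h, Os12g0163700 became -0.15 (range -0.15 to 1.5). Depth limits Os12g0630200 and Os08g0327700, which had 5 reads each over the aoc 0 h libraries.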

Other observations

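In the 2nd leaf of aoc, the identifiers called in root were also measured, in libraries that the root calls did not use. Of the 2478 root rises, 2338 passed the leaf filter, and their median difference between leaf aoc 72 h and 0 h was 0.50 in mean log2 CPM, with 75.2% above 0. Of the 2711 root falls, 2266 passed, with a median of -0.46 and 25.4% above 0. Over all 23252 identifiers measured in both tissues the median was 0.03, with 51.7% above 0. For root rises of at least 2-fold the leaf median was 0.93 and for falls of at least 2-fold -1.09. Without leaf aoc 0 h replicate 3 these last medians were 0.91 and -0.84. Over all root rises the median was then 0.50, with 73.3% above 0, and over all root falls -0.39, with 29.5% above 0. That library held most leaf aoc 0 h reads of both leading root falls, at 2.23 and 1.68 CPM. No test was made of these values.

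The leading root identifiers differed in leaf. Os08g0327700 had 6.34, 0.121 and 14.7 CPM in leaf aoc at 72 h, against 0, 0 and 0.928 CPM at 0 h, with 72 h replicate 2 inside the range of 0 h. Os12g0630200 had 0.704, 2.08 and 4.81 CPM at 72 h, against 0.765, 0.196 and 2.51 CPM at 0 h, and the hours overlapped. The identifiers that fell in root were low in leaf from the start. Os11g0179700 had 0 reads in every leaf aoc library at 72 h, against 0, 0 and 2.23 CPM at 0 h, where 1 library held all its reads. Os12g0163700 had 0.117, 0 and 0.0968 CPM at 72 h, against 0.0306, 0.0654 and 1.68 CPM at 0 h.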
